A study of Mus musculus with 4 samples.

Results

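Cish encodes a feedback inhibitor of cytokine receptors, and its transcript was lower without the kinase ASK1 in both fat depots of the mouse: 3.61-fold lower in interscapular brown adipose tissue (iBAT) and 2.15-fold lower in epididymal white adipose tissue (eWAT). It is described here together with 9 other genes of growth hormone signalling, the receptor Ghr, the kinase Jak2, the transcription factors Stat3, Stat5a and Stat5b, the target gene Igf1 and the inhibitors Socs1, Socs2 and Socs3. These 10 genes were found by their symbol on the array, where 20 of the 55681 probes and 10 of the 22065 genes that could be named carry them. They were chosen by the Cish signals of these arrays, because Cish was lower without ASK1 in both fats, so the genotype ratios below are a description and carry no test.

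Growth hormone binds its receptor GHR, which is held together with the tyrosine kinase JAK2. JAK2 phosphorylates STAT5A and STAT5B, which enter the nucleus and switch on genes such as Igf1, Cish and Socs2. CISH and the SOCS proteins then bind the activated receptor or its kinase and shut the signal down, so their transcripts are often read as a trace of recent STAT5 or STAT3 activity. In fat, growth hormone favours lipolysis over fat storage and raises local production of the growth factor IGF-1. Interleukin-6 family cytokines use the related factor STAT3, for which Socs3 is the main inhibitor.

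Total RNA was labelled with Cy3 and hybridised to 1-colour Agilent mouse arrays, with 1 array for each of 4 conditions: wild-type (WT) iBAT, ASK1-deficient (ASK1KO) iBAT, WT eWAT and ASK1-deficient eWAT. Each array held a pool of RNA from 3 male mice of 10 weeks on a C57BL/6J background, kept under normal conditions with no treatment. ASK1, encoded by Map3k5, was absent from the whole body and not from adipocytes alone, and the 2 genotypes came from separately bred colonies, so genotype and colony cannot be told apart. No condition had a replicate array, and the spread between animals within a pool is not seen. In bulk tissue fewer cells of a type and less RNA per cell cannot be told apart.

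Between 28985 and 33389 probes were well above background per array, no spot was saturated, and the median standard deviation (SD) of a log2 ratio over repeated spots of a probe was 0.0869 in iBAT and 0.0599 in eWAT. The first Map3k5 probe read 448 and 117 in WT and ASK1-deficient iBAT, and 701 and 194 in the eWAT pools, whereas its second probe read 1081 and 1082 in iBAT and 1264 and 836 in eWAT. All 12 brown adipocyte markers were higher in WT iBAT than in WT eWAT, with a median log2 difference of 5.76, and 0 of the 7 measured white adipocyte markers were. Of the 20 probes of the 10 genes, 19 were well above background on all 4 arrays. The exception was 1 of the 4 Socs2 probes in WT iBAT.

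STAT dimers bind the palindrome TTCNNNGAA, which reads the same on both strands. Promoter windows of 300 bases, from 250 before to 50 after the annotated start in RefSeq (GRCm38.p6), were found for 9 of the 10 genes, in 12 windows, and 2 genes held the palindrome: Cish and Socs3. The stretches with the matches are shown because Cish leads the genotype ratios below and Socs3 held the one other match, and capitals mark the palindrome. The Cish stretch is chr9:107296559-107296678 on the plus strand, and the Socs3 stretch is chr11:117969457-117969576 on the minus strand.
Cish: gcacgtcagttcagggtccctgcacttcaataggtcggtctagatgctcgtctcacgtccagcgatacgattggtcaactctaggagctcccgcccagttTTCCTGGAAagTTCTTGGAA
Socs3: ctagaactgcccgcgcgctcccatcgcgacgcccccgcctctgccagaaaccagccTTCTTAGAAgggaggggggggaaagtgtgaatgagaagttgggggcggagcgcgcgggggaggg

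Cish held 2 copies in tandem, beginning at positions 1 and 12 counted from its annotated start, and Socs3 held 1, beginning at position -154. At least 1 copy was present in 8.30% of all 32851 promoter windows, at least 2 copies in 0.457%, and 2 copies beginning within 20 bases of each other in 0.0457%, or 15 windows. A match is a run of letters and not a measured binding site, and the windows of the other members say nothing about sites farther away. Socs2 had no entry in the promoter table.

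In the following, a signal is the background-subtracted brightness of a probe as the scanner software gave it, and a level is its log2 after division by the 75th percentile of its array. A log2 ratio is the level in ASK1-deficient minus that in WT tissue, and a gene's ratio is the mean over all probes of it that passed the background test on each of these arrays. Coordinates of probes are those of the array's design file, build mm9, and exons were not assigned because no annotation of that build was used here. Levels of different probes are not set against each other.

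Ghr, the growth hormone receptor, had log2 ratios near 0 and was read by 2 probes on chromosome 15, minus strand. The probe at chr15:3268107-3268166, for the first reference transcript, had signals of 6940 and 6221 in WT and ASK1-deficient iBAT, and of 59065 and 59418 in the eWAT pools. At chr15:3277543-3277602, in a second transcript, the signals were 7977 and 9174 in iBAT and 49467 and 48259 in eWAT. The probes pointed opposite ways in iBAT, with log2 ratios of -0.22 and 0.14, and their mean was -0.04, against 0.07 in eWAT. Both eWAT arrays lay far above both iBAT arrays at either probe.

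Jak2, the kinase bound to the receptor, was read by 1 probe at chr19:29387487-29387546. In WT and ASK1-deficient iBAT its signals were 888 and 1071, and in the eWAT pools 3030 and 2320. Its log2 ratio stood at 0.21 in iBAT and -0.30 in eWAT, the latter the lowest of the 9 genes other than Cish in that tissue. Both ratios exceeded 2 SD of the median repeated probe, and the signs were opposite. With the deposited series table and with median centring the iBAT ratio was 0.12 and 0.13, within 2 SD.

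Transcripts of the STAT5 factors were slightly lower in ASK1-deficient iBAT and almost equal in eWAT. Stat5a, at chr11:100746373-100746432, had signals of 3354 and 2849 in iBAT and 4555 and 4156 in eWAT, or log2 ratios of -0.30 and -0.04. The Stat5b probe at chr11:100642045-100642104 had signals of 3176 and 2580 in iBAT and 5620 and 5357 in eWAT. The other Stat5b probe, at chr11:100642187-100642246, gave 1487 and 1370 in iBAT and 2396 and 2353 in eWAT. Both Stat5b probes were lower in ASK1-deficient iBAT, by log2 ratios of -0.36 and -0.18, and in eWAT they stood at 0.02 and 0.06. Stat5a, Stat5b and Stat3 lie next to one another on chromosome 11.

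Stat3, the factor of the interleukin-6 family, was the best repeated of the factors, with 10 spots of its probe at chr11:100749598-100749657. Those spots averaged 3030 and 3417 in iBAT and 8554 and 7758 in eWAT. All 10 spots lay above 0 in iBAT, with a log2 ratio of 0.11 ± 0.041 (SD over 10 spots of 1 array pair), and all 10 lay below 0 in eWAT, at -0.05 ± 0.025. Repeated spots show the precision of the array and not the spread between mice. The second Stat3 probe, at chr11:100759946-100760005, read 140 and 158 in iBAT and 362 and 379 in eWAT, with log2 ratios of 0.12 and 0.15, so the probes disagreed in sign in eWAT.

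Igf1 encodes the growth factor through which much of growth hormone's effect on growth is exerted. In iBAT its gene ratio was 0.16 on the log2 scale and in eWAT -0.16, neither more than 2-fold from equality at any probe. The probe at chr10:87399581-87399640 had signals of 519 and 668 in iBAT and 12898 and 10652 in eWAT. At chr10:87395924-87395983 they were 39.8 and 57.4 in iBAT and 531 and 471 in eWAT, which gave the highest Igf1 ratio in iBAT, 0.47. A pair of probes that share 40 bases, at chr10:87393561-87393620 and chr10:87393581-87393640, had log2 ratios of -0.16 and 0.08 in iBAT and of -0.14 each in eWAT. The remaining probe, at chr10:87378456-87378515, had ratios of 0.09 and -0.26. In eWAT all 5 probes were lower in the ASK1-deficient pool, and in iBAT 4 of the 5 were higher.

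Macrophages and hepatocytes also make Igf1. In iBAT all 12 measured macrophage markers were higher in the ASK1-deficient pool, 3 of them at least 2-fold beside 0.835% of all genes, with a median log2 ratio of 0.80 beside -0.07 over all genes. The 3 were Fcgr1 at 1.01, Ctss at 1.04 and Mpeg1 at 1.10. Fcgr1 and Ctss fell short of 2-fold with median centring or the deposited series table, which shift iBAT ratios by -0.08 and -0.09. Itgax, at 0.998, passed it with no scaling. In eWAT 11 of 13 macrophage markers were below 0, none by 2-fold, with a median of -0.07 beside 0.02. Their summed level relative to the 75th percentile came to 44.9 and 58.2 in WT and ASK1-deficient iBAT, and to 179 and 169 in the eWAT pools, and of the 13 markers Cd163 alone was not well above background in WT iBAT. The part of macrophages in the Igf1 values was not tested.

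Hepatocyte markers differed strongly between the eWAT pools. All 7 that were measured on both eWAT arrays were lower in the ASK1-deficient pool, 5 of them at least 2-fold beside 0.865% of all genes, and of the 15 markers 14 were well above background in the WT and 7 in the ASK1-deficient pool. Alb, encoding albumin, had signals of 3234 and 158 there, against 7.50 and 115 in iBAT, where 5 markers were well above background in WT and 12 in ASK1-deficient tissue. The list's summed level was 91.2 and 85.6 in iBAT and 659 and 635 in eWAT, most of it from Cyp2e1, and without Cyp2e1, a choice made after its values were seen, 11.6 and 13.4 in iBAT and 29.98 and 7.02 in eWAT. Igfbp1, a growth hormone and insulin responsive gene of liver, was not well above background on any array. Liver transcribes Ghr, Igf1, Socs2 and Cish, and the part of liver RNA in their eWAT values was not tested.

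Cish, the inhibitor with the largest genotype ratio, was read by 1 spot of 1 probe at chr9:107204196-107204255 on the plus strand. Signals were 9788 and 2832 in the WT and ASK1-deficient pools of iBAT, and 4760 and 2081 in those of eWAT. As log2 ratios these are -1.85 in iBAT and -1.11 in eWAT, and only 0.118% and 0.644% of measured genes had a lower one. Since the rule that assembled these genes used this contrast, the position of Cish among all genes describes how it came to be chosen. With a single spot, no spread could be taken at Cish itself. Of the 14 spots around it on the glass, 6 were well above background in iBAT and 7 in eWAT, and 0 of them were 2-fold apart between genotypes, with log2 ratios from -0.37 to 0.33 and from -0.26 to 0.16.

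With the arrays scaled, the 4 Cish levels fell into 3 steps. WT iBAT was highest at 4.78, ASK1-deficient iBAT at 2.93 and WT eWAT at 2.82 were next, and ASK1-deficient eWAT was lowest at 1.72. The middle arrays differed by 0.11, within 2 SD of a median repeated probe on that pair of arrays. Without scaling their order turned, with signals of 2832 in ASK1-deficient iBAT and 4760 in WT eWAT. The other steps are the genotype ratios by which the genes were chosen.

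Socs2, the inhibitor whose loss lets mice overgrow, was lower in the ASK1-deficient pools at its 3 probes of the reference transcript, but by much less than Cish. The probe with 10 spots, at chr10:94875066-94875125 on the minus strand, averaged 417 and 318 in iBAT and 1023 and 795 in eWAT. All 10 spots were lower in both tissues, with log2 ratios of -0.45 ± 0.084 (SD over 10 spots of 1 array pair) in iBAT, from -0.59 to -0.30, and of -0.28 ± 0.069 in eWAT, from -0.40 to -0.16. The probe at chr10:94875187-94875246 read 274 and 214 in iBAT and 676 and 471 in eWAT. That at chr10:94875468-94875527 read 216 and 169 in iBAT and 493 and 409 in eWAT. These neighbouring probes both stood at -0.42 in iBAT, and at -0.44 and -0.18 in eWAT.

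The remaining Socs2 probe, for a separate transcript 27001 bases away at chr10:94848005-94848064, went the other way. In WT iBAT it read 12.4, not well above background, and in ASK1-deficient iBAT 27.5, while the WT and ASK1-deficient eWAT pools read 66.8 and 76.3. It was at least 1.34-fold higher in ASK1-deficient than in WT iBAT, taking the lowest signal well above background as the floor, and its log2 ratio in eWAT was 0.28. With this probe counted the Socs2 ratio in eWAT was -0.15, and over the other 3 probes -0.30. In iBAT the filter on dim probes left it out and the Socs2 ratio was -0.43, against -0.05 without that filter.

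Socs1, which blocks the JAK kinases directly, was dim and differed little, with signals of 88.9 and 90.7 in iBAT and 364 and 283 in eWAT at chr16:10783951-10784010. Its log2 ratios were -0.03 and -0.28. Socs3, at chr11:117827480-117827539, read 257 and 329 in iBAT and 1336 and 1125 in eWAT. Its ratio was 0.29 in iBAT, the highest of the 10 genes there, and -0.16 in eWAT.

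**Figure D1:**
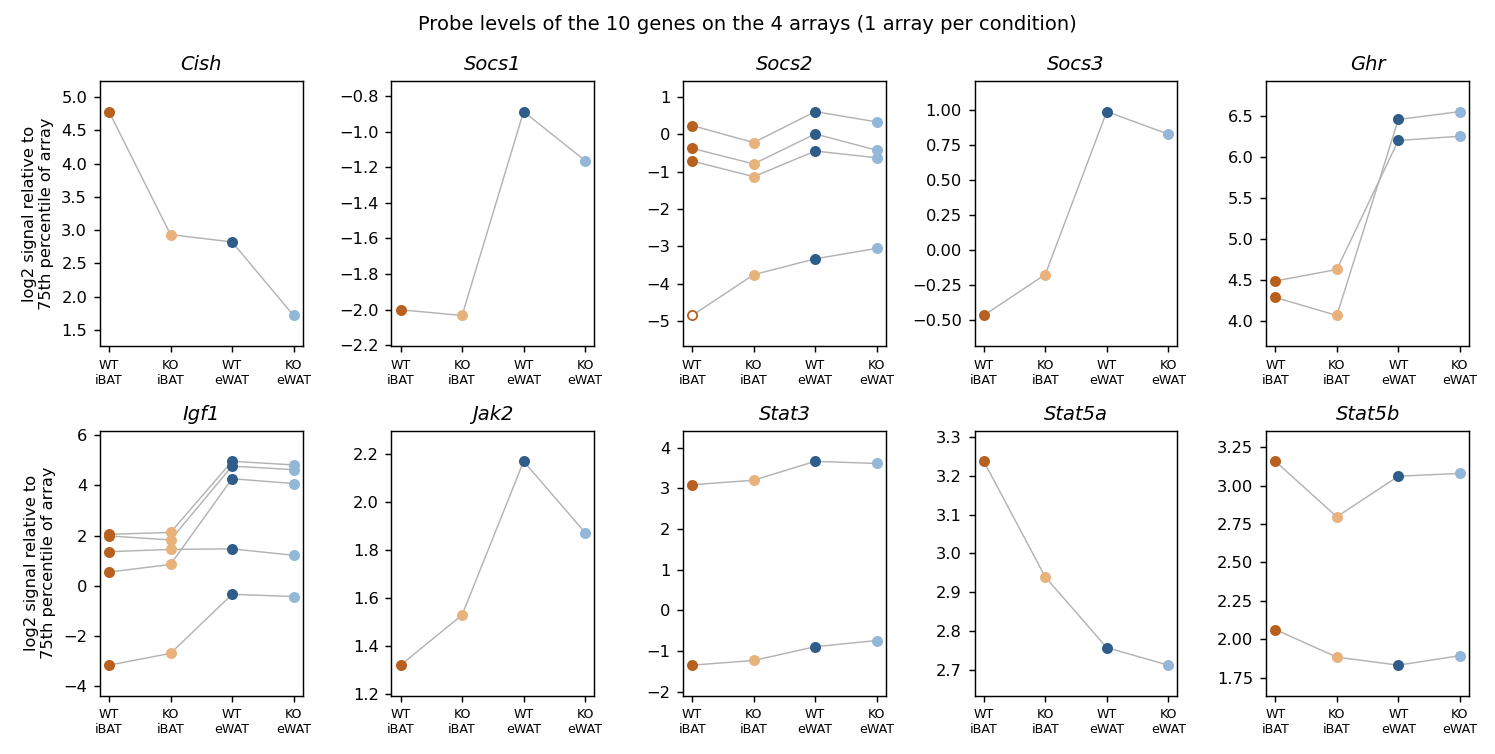
Level of each probe (log2 signal relative to the 75th percentile of its array) of the 10 genes on the 4 arrays. Each point is 1 probe on 1 array, lines join a probe, and the open point was not well above background. Cish steps down from 4.78 in WT iBAT to 1.72 in ASK1-deficient eWAT, while Ghr and 4 of the 5 Igf1 probes separate the tissues.

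At a threshold of 2-fold, Cish was the 1 gene of the 10 that differed between genotypes in iBAT and the 1 gene in eWAT, beside 1.85% of 14376 genes in iBAT and 1.15% of 15376 genes in eWAT. With directions kept apart, 1.02% of genes were at least 2-fold lower and 0.835% higher in ASK1-deficient iBAT, and 0.865% lower and 0.286% higher in ASK1-deficient eWAT. The share of lower genes among those 2-fold apart was 54.9% in iBAT, where it ran from 38.2% with the 75th percentile taken over probes detected on all arrays to 68.3% with the series table, and 75.1% in eWAT, from 58.3% without a filter on dim probes to 83.3% with normexp. In iBAT 4 of the 10 ratios were above 0 and 6 below, with a median of -0.04 beside -0.07 over all genes. In eWAT 3 were above and 7 below, with a median of -0.16 beside 0.02. The 9 genes other than Cish spanned -0.43 to 0.29 in iBAT and -0.30 to 0.07 in eWAT.

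Genes lower by 2-fold or more in both fats numbered 10 of 14058, or 0.0711%. Cish was among them with Map3k5 itself, Dio2, which encodes the enzyme that activates thyroid hormone, Adh4, an alcohol dehydrogenase, Acot11, an acyl-CoA thioesterase, and Gm6524, Hebp2, Niban3, Tatdn2 and Zfp963. No other gene of growth hormone signalling listed here was in that set. Cish, Socs1, Socs2 and Stat5a were below 0 in both tissues, Stat3 was above 0 in both, and the other 5 had opposite signs. Among the smaller ratios some signs turned with the scaling: Socs1 and Ghr in iBAT, and Ghr, Stat3 and Stat5b in eWAT.

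**Figure D2:**
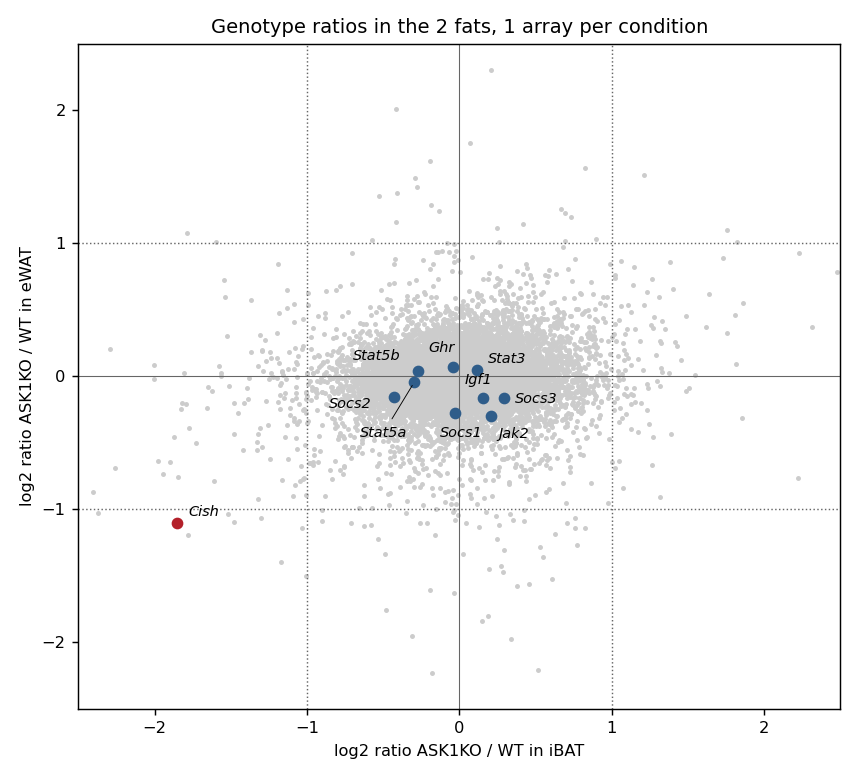
Log2 ratio of ASK1-deficient to WT tissue in iBAT (horizontal) and eWAT (vertical) for 14058 genes in grey, 25 of which lie beyond the axes, with the 10 genes in colour and dotted lines at 2-fold. Cish lies at -1.85 and -1.11, and the other 9 genes lie within the bulk of the grey points.

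Other brakes and relatives were described from 8 lists with 99 genes. In iBAT 79 of them were measured, of which 1 was at least 2-fold higher and 3 lower beside 0.835% and 1.02% of all genes, with a median log2 ratio of 0.03 beside -0.07 over all genes. In eWAT 88 were measured, of which 0 were higher and 2 lower beside 0.286% and 0.865%, with a median of -0.02 beside 0.02. The 4 remaining measured SOCS box genes, Socs4 to Socs7, were all below 0 in iBAT, from Socs7 at -0.39 to Socs6 at -0.15, and 3 of 4 were below 0 in eWAT, from Socs7 at -0.29 to Socs6 at 0.01. None of the other JAK kinases and STAT factors reached 2-fold. Stat2 was highest in iBAT at 0.35 and Jak3 lowest at -0.18, and in eWAT Stat4 was lowest at -0.41.

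Among target genes of STAT5, Pim1 and Myc stood out in iBAT in opposite directions. Pim1, a survival kinase, had signals of 1389 and 617 in WT and ASK1-deficient iBAT and of 205 and 196 in eWAT, giving log2 ratios of -1.23 and 0.02. Myc, the growth regulator, read 85.9 and 315 in iBAT and 367 and 368 in eWAT, with ratios of 1.81 and 0.09. Bcl6, a repressor that STAT5 itself controls, stood at -0.17 and 0.09. Of 9 measured STAT5 targets 5 were above 0 and 4 below in iBAT, and 6 above and 3 below in eWAT. None of these 9 was 2-fold lower in both fats.

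The STAT3 targets held the gene most like Cish among the lists. Bcl3, an atypical inhibitor protein of the NF-kB family, had signals of 6451 and 2695 in iBAT and 4100 and 2034 in eWAT, for log2 ratios of -1.32 and -0.92. Over the scalings and filters tried it ranged from -1.41 to -1.17 in iBAT and from -1.01 to -0.90 in eWAT. In eWAT 11 of 12 STAT3 targets were below 0, with a median of -0.17 beside 0.02 over all genes, and the acute-phase genes Saa3, at 1689 and 439, and Timp1, at 1011 and 395, were more than 2-fold lower, with ratios of -1.86 and -1.27. Hepatocytes transcribe several acute-phase genes of the list, and the hepatocyte markers were lower on the same array, with a median of -3.75 over 7 genes. Their part in these values was not tested. In iBAT 6 of 11 were below 0. Timp1 was 0.77 there, and Saa3 was not well above background on either iBAT array.

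No receptor or ligand measured on both arrays of a tissue was 2-fold apart. Of 20 cytokine receptors 19 were measured in iBAT, 13 above 0 and 6 below, from Lepr at -0.35 to Crlf2, part of the thymic stromal lymphopoietin receptor, at 0.64. In eWAT 10 were above and 10 below, from Il10ra at -0.43 to Il6ra at 0.17. Gh and Prl, encoding growth hormone and prolactin, were not well above background on any array. Lep, encoding leptin, was the highest of 5 measured ligands in iBAT at 0.44 and Ctf1, an interleukin-6 family cytokine, the lowest at 0.02, and of 8 in eWAT Lif was highest at 0.52 and Il4 lowest at -0.40. Ifng, encoding interferon gamma, was well above background in WT eWAT alone, at 70.4 against 16.7 in the ASK1-deficient pool, and so at least 3.20-fold lower there, the 1 gene of the 8 lists whose bound passed 2-fold.

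On the insulin and IGF side, Irs2 was the gene that passed 2-fold. This adaptor of the insulin and IGF-1 receptors had signals of 12067 and 6174 in iBAT and 5916 and 7522 in eWAT, with log2 ratios of -1.03 and 0.43. In iBAT it stayed short of 2-fold with quantile normalization at -0.895, with the detected probes' percentile at -0.925 and with no scaling at -0.967. Irs1 stood at -0.70 and -0.20. The receptor Igf1r was at 0.26 and 0.01, and Igfals, the acid-labile subunit that carries IGF-1 in blood, at -0.03 and 0.20. Among phosphatases and other brakes none was 2-fold apart. Ptprc, a leukocyte phosphatase that also counts among the macrophage markers above, was the highest in iBAT at 0.82, and Cbl, a ubiquitin ligase, the lowest at -0.46, whereas in eWAT they stood at -0.40 and -0.09.

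**Figure D3:**
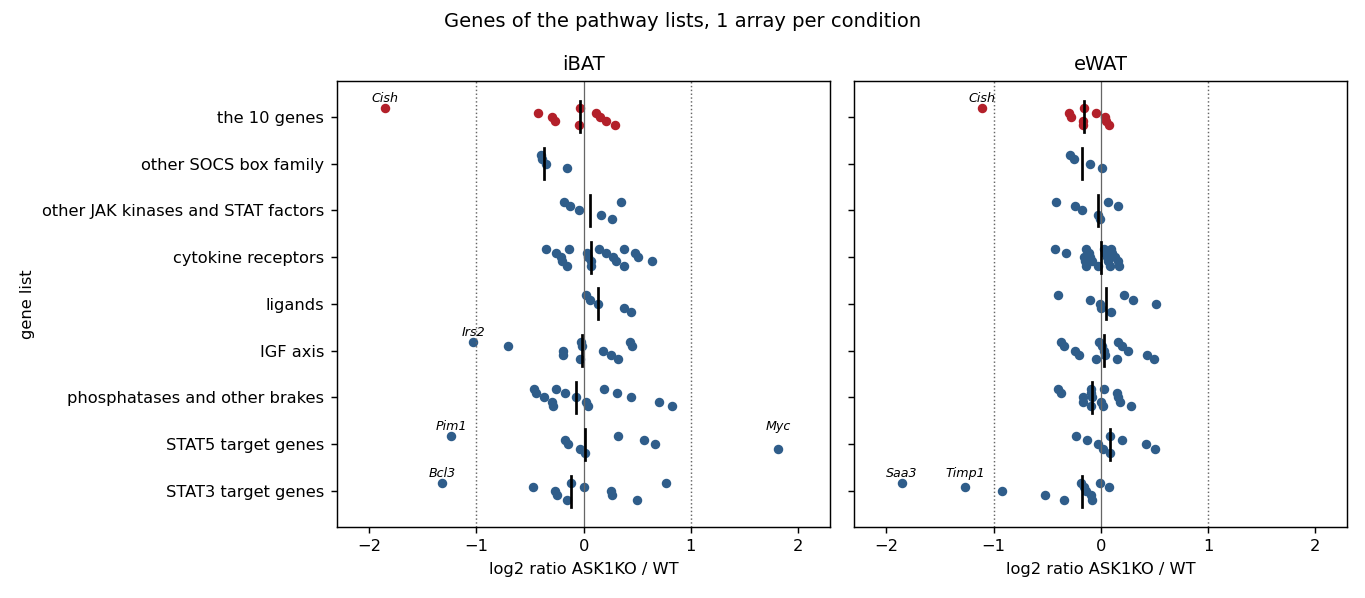
Log2 ratio of ASK1-deficient to WT tissue (horizontal) for each measured gene (point) of the 10 genes and of 8 pathway lists (rows), in iBAT (left) and eWAT (right), with black bars at the medians and dotted lines at 2-fold. Genes at least 2-fold apart are named: Cish, Irs2, Pim1, Bcl3 and Myc in iBAT, and Cish, Saa3 and Timp1 in eWAT.

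Immediate early genes are induced within minutes of a stimulus. All 11 were below 0 in both tissues, 5 of them at least 2-fold lower in iBAT, beside 1.02% of all genes, and 0 in eWAT, beside 0.865%. In iBAT Egr2 at -1.04 and Ier3 at -1.02 fell short of 2-fold with no scaling or the detected probes' percentile. These settings shift iBAT ratios by 0.06 and 0.10. Ier2, at -0.995, passed 2-fold with median centring or the series table. The medians of the 11 genes were -0.995 in iBAT and -0.519 in eWAT, beside -0.07 and 0.02 over all genes. They ranged from -2.40 for Nr4a1 to -0.06 for Fosb in iBAT, and from -0.87 for Nr4a1 to -0.08 for Dusp1 in eWAT. Their summed level relative to the 75th percentile was 171 and 45.9 in WT and ASK1-deficient iBAT, and 31.8 and 25.1 in eWAT. In iBAT much of it was Nr4a1. Without Nr4a1, a choice made after its values were seen, the sums were 45.6 and 22.2 in iBAT and 27.1 and 22.5 in eWAT. Brown adipocyte markers were lower as well, 11 of 12 below 0 in iBAT with a median of -0.32 and 8 of 11 below 0 in eWAT with a median of -0.82, their sums being 4060 and 3448 in iBAT and 55.9 and 23.9 in eWAT. General adipocyte markers had a median of -0.28 in iBAT, with 4 of 7 below 0. In eWAT their median was 0.07, with 2 of 7 below 0. Their sums were 2304 and 2313 in iBAT and 1870 and 1900 in eWAT. In eWAT 6 of 8 measured skeletal muscle markers were below 0, 2 of them at least 2-fold, with a median of -0.58. Of the T and B cell markers, 5 of 7 measured were below 0 in iBAT, with a median of -0.30. In eWAT 6 of 9 were below 0, with a median of -0.16. Their sums were 13.3 and 10.6 in iBAT and 11.6 and 11.3 in eWAT. The part of any of these lists in the Cish values was not tested.

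The genes whose 4 levels ran most like those of Cish were sought among 14056 genes well above background on all 4 arrays, by Euclidean distance on the log2 scale after each gene was centred on its mean. Nap1l5 at 0.45, Bcl3 at 0.45, Tfr2 at 0.49, Hebp2 at 0.49 and Dnajb3 at 0.58 were nearest. Their ratios in iBAT lay between -2.54 for Hebp2 and -1.32 for Bcl3, and in eWAT between -1.23 for Hebp2 and -0.49 for Dnajb3. The 5 nearest to Igf1 were Fgf18 at 0.048, Cd48 at 0.074, Fgd2 at 0.078, Plxna4 at 0.081 and Akr1c12 at 0.083. These distances rest on 4 arrays and describe the shape of a profile only.

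The contrast of the 2 tissues was not used in choosing the genes. It was fitted with limma over the 4 arrays with genotype as a term. This leaves 1 residual degree of freedom, which is the difference between tissues in the effect of genotype. The error therefore rests mainly on the spread shared by all genes. With no replicate of a condition, the errors and intervals below do not measure variation between mice. For Cish the genotype term and the residual come from the ratios by which it was chosen, so its test is not independent of that choice. Of the 10 genes, 7 passed an adjusted p of 0.05 (limma, Benjamini-Hochberg over 14056 genes), beside 55.5% of all genes. Lower in iBAT were 6 of them, beside 24.7% of genes, and higher 1, beside 30.8%. Of the genes called, 55.6% were higher in iBAT, against 11.8% without scaling and 67.8% without a filter on dim probes.

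Receptor and growth factor differed most. The Ghr level was 4.39 and 4.35 in WT and ASK1-deficient iBAT against 6.33 and 6.40 in eWAT. Its log2 difference, iBAT minus eWAT, was -1.997 (SE 0.15), or 3.99-fold lower in iBAT, with a 95% interval from -2.35 to -1.64 and a limma adjusted p of 0.000124. The Igf1 level was 0.55 and 0.71 in WT and ASK1-deficient iBAT against 3.02 and 2.86 in eWAT. It was 4.95-fold lower in iBAT, a log2 difference of -2.31 (SE 0.16, 95% interval -2.69 to -1.92, limma adjusted p 9.84e-05). Macrophage markers were also higher in eWAT, as their sums above show, and their part in the Igf1 difference was not tested.

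The Igf1 probes differed among themselves. In WT tissue the probe at chr10:87399581-87399640 was 13.1-fold higher in eWAT and the 3 others of the same transcript were 6.86-fold to 7.50-fold higher, whereas the probe at chr10:87378456-87378515, 15045 bases before the nearest of them and assigned to another Igf1 transcript, was 1.08-fold higher. That probe read 911 and 1012 in iBAT and 1863 and 1469 in eWAT, and its log2 difference between tissues, iBAT minus eWAT, was -0.11 in WT and 0.23 in ASK1-deficient mice. The gene's fitted difference averages these 5 probes.

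**Figure D4:**
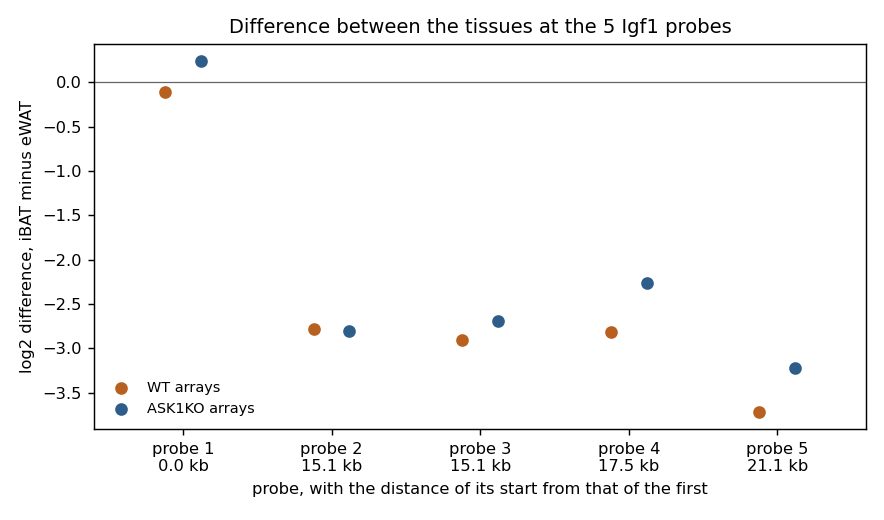
Log2 difference in level, iBAT minus eWAT (vertical), at the 5 Igf1 probes in order along the gene, with the distance of each probe's start from that of the first in kb, for the WT arrays and the ASK1-deficient arrays (1 point each). The first probe lies near 0 and the other 4 well below it.

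Signalling components and inhibitors differed less and mostly in the same direction. Jak2 was lower in iBAT by a log2 difference of -0.60 (SE 0.18, limma adjusted p 0.0287), being -0.85 between the WT arrays and -0.34 between the ASK1-deficient arrays, and Stat3 by -0.48 (SE 0.15, limma adjusted p 0.0303). With the arrays centred on the median the Stat3 value was -0.53 with an adjusted p of 0.0522, and with the series table -0.50 with one of 0.0701. Without a filter on dim probes both had the same differences, with adjusted p of 0.0908 for Jak2 and 0.105 for Stat3. Stat5a, at 0.35 (95% interval -0.02 to 0.72, limma adjusted p 0.095), and Stat5b, at 0.01 (95% interval -0.37 to 0.39, limma adjusted p 0.964), did not pass. Without scaling both were negative and called, and Stat5b was slightly below 0 under 6 further settings, none of which called it.

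Socs3 was 2.35-fold lower in iBAT, a log2 difference of -1.23 (SE 0.17, limma adjusted p 0.00146), with levels of -0.47 and -0.18 in WT and ASK1-deficient iBAT and 0.99 and 0.83 in eWAT. Socs1 was lower by -0.99 (SE 0.15, 95% interval -1.36 to -0.62, limma adjusted p 0.00226), and by -0.57 with normexp and -1.84 without scaling. Socs2 stood at -0.41 (SE 0.15, 95% interval -0.77 to -0.05) and missed the threshold with a limma adjusted p of 0.0548, although its 2 iBAT levels, -0.29 and -0.72, lay below both eWAT levels, 0.05 and -0.24, the closest pair within 2 SD of a median repeated probe. It passed with quantile normalization (adjusted p 0.0400), with its brightest probe alone (0.0389), with the detected probes' percentile (0.0299) and with no scaling (0.00142).

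Cish was the 1 gene of the 10 that was called higher in iBAT. It was 3.01-fold higher in iBAT, a log2 difference of 1.59 (SE 0.21, 95% interval 1.08 to 2.09, limma adjusted p 0.00116), while its receptor Ghr, its fellow target Igf1 and its relatives Socs1 and Socs3 were all lower there. The difference was 1.96 between the WT arrays and 1.22 between the ASK1-deficient arrays. Without the genotype term the same difference had a limma adjusted p of 0.102, so the call depends on that term, and without scaling, which lowers every tissue difference by 0.85, it was 0.74. Skeletal muscle markers were also higher in iBAT, with 10 of 10 well above background on both iBAT arrays and 9 and 8 on those of eWAT, and with summed levels of 1109 and 1113 in WT and ASK1-deficient iBAT against 28.1 and 25.8 in eWAT. The part of muscle RNA in the Cish difference was not tested.

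**Figure D5:**
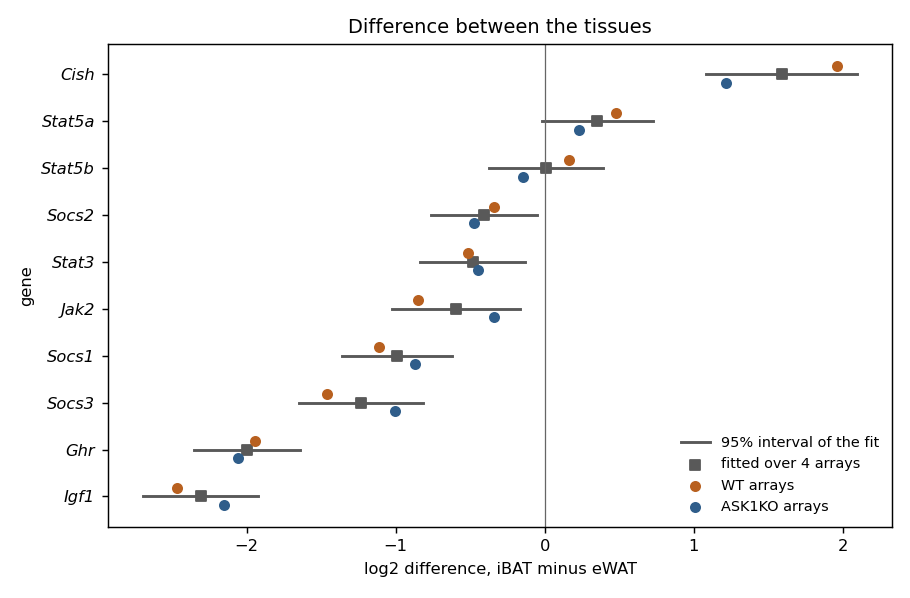
Log2 difference in level, iBAT minus eWAT (horizontal), of the 10 genes (rows), with the value fitted over 4 arrays as a square, its 95% interval as a line, and the WT and ASK1-deficient array pairs as points. Cish lies at 1.59, Igf1 at -2.31, and the intervals of Stat5a and Stat5b include 0.

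Of 79 genes of the 8 lists that could be tested, 34 were lower and 22 higher in iBAT at an adjusted p of 0.05 (limma), beside 24.7% and 30.8% of all genes, with a median log2 difference of -0.34 beside 0.07 over all genes. The prolactin receptor Prlr, a close relative of Ghr, differed most among the receptors at -3.49, the mean over 2 unequal probes. One read 56.0 and 74.6 in iBAT and 3242 and 3218 in eWAT, with log2 differences of -4.93 and -4.66 for the WT and ASK1-deficient pairs, and the other 66.5 and 79.9 in iBAT and 590 and 592 in eWAT, or -2.23 and -2.12. Igfbp4 and Igfbp6, binding proteins that hold IGFs outside cells, stood at -2.957 and -2.965, and Igfals at -2.37. Of 9 tested STAT5 targets 5 were higher and 2 lower in iBAT, among them Pim1 at 3.05 and Bcl6 at 1.67 against Ccnd1, a cyclin, at -1.14 and Igfals. Of 11 STAT3 targets 2 were higher, Cebpb at 2.34 and Bcl3 at 1.38, and 7 lower, led by Cebpd at -1.998.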

How the data were processed

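RNA pools of WT and ASK1-deficient iBAT and eWAT were measured on 4 arrays. The deposited scanner files hold each spot's processed signal, an intensity that the authors' Agilent Feature Extraction run had background-subtracted but not scaled between arrays, and the mean and background intensity deposited beside it. The deposited series table holds the same signals, each array divided by 1 constant (median 1). Scale and direction are therefore known.

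Control and outlier spots were left out, spots of a probe averaged, and log2 signals scaled to the array's 75th percentile. Of 34844 gene names 22146 matched RefSeq. Every probe of the 10 genes is given. Of other lists, genes at least 2-fold apart, or else the highest and lowest, are named, with further markers chosen after their values were seen. Members and lists were chosen with earlier results of these data known. Genotype ratios have no test; the tissue fit used limma 3.58.1 (R 4.3.3; 1 residual and 5.23 prior degrees of freedom). On simulated data 200 of 200 genes changed between tissues, among 14056, were recovered, with 4 false calls. The rate of missed or false calls on the real arrays was not tested. Normexp (offset 50), quantile, median, no scaling, the percentile over detected probes, the series table, the brightest probe, filters on dim probes, a threshold of 1.5-fold and fits without the genotype term were tried. The number of arrays limits precision.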

Additional observations from a re-analysis of the deposited data

How the results depend on the processing

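Cish kept its direction under all 9 other ways of preparing the values, with log2 ratios from -1.94 to -1.68 in iBAT and from -1.19 to -1.08 in eWAT. The values that moved by more than the spread between spots were -1.68 in iBAT and -1.17 in eWAT with quantile normalization, -1.75 in iBAT with the 75th percentile over probes detected on all arrays, and -1.19 in eWAT with no scaling. The number of the 10 genes at least 2-fold apart stayed at 1 in each tissue, also at 1.5-fold.

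Between tissues, the Cish difference was 1.96 in the WT arrays alone and 1.22 in the ASK1-deficient arrays alone, and 1.59 with an adjusted p of 0.102 without the genotype term. Over the 10 alternatives with a test it ran from 0.74 to 1.59, with adjusted p from 4.55e-10 to 0.102. With no scaling Stat5a turned to -0.49 (adjusted p 0.0205) and Stat5b to -0.84 (adjusted p 0.00432), a setting that moved the median of all genes by -0.85. Without a filter on dim probes that median moved by 0.21, and the percentile over detected probes moved the iBAT genotype median by 0.10. The number of the 10 genes called ran from 5 without a filter to 10 without scaling. Genes lower without ASK1 by 2-fold or more numbered 146 in iBAT and 133 in eWAT, against 68 and 50 with normexp and 544 and 604 without a filter, and 82 in eWAT for probes well above background on all 4 arrays.

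The tissue fit, through its genotype term, compares the tissues within each genotype, and a further pairing of the genotypes by replicate could not be made with 1 array per condition. Leaving out an array leaves no residual degree of freedom beside genotype, so the array pairs of each genotype stand in its place. Signal over background limits the Socs2 probe of the separate transcript.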
